A study of Ovis aries with 6 samples.

Results

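CYP17A1 and HSD11B1, both enzymes of steroid hormone metabolism, were described in skin from the body side of 2 sheep breeds, the Aohan fine wool and the small tail Han. Each gene has 2 probes on the array, A_70_P012531 and A_70_P012532 for CYP17A1 and A_70_P051221 and A_70_P051222 for HSD11B1, which are 4 of 15008 probes and 2 of the 476 gene symbols that could be named. The genes were chosen by name with earlier results of these arrays known, so the breed difference at their probes is given as a description and carries no test. RNA from full-thickness skin of 3 sheep of each breed, 12 months old and reared in pens, was hybridised to 1-colour Agilent arrays, 1 array per animal. The Aohan breed grows fine wool and the small tail Han breed coarse wool. The animals of a breed were 1 ram and 2 ewes by the same sire, and which array is the ram's is not labelled. Breed and sire's family cannot be told apart.

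Steroid hormones are made from cholesterol, which is carried into mitochondria with the help of STAR and cut by CYP11A1 to pregnenolone. CYP17A1, a cytochrome P450 of the endoplasmic reticulum, then hydroxylates pregnenolone and progesterone on the way to cortisol and splits the hydroxylated products to precursors of androgens. It is best known from the adrenal cortex and the gonads. HSD11B1 acts later and on the hormone itself, since it turns inactive cortisone back into active cortisol inside cells of the liver, fat and skin. HSD11B2 runs the opposite way and inactivates cortisol.

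The 3 arrays of each breed were read in 1 scan, so scan and breed cannot be told apart. The 75th percentile of the processed intensity ran from 1747 to 2309 for small tail Han and from 1103 to 2048 for Aohan sheep, and 10731 to 13384 of the probes were well above background. Signals are log2 values relative to that percentile of the same array, and differences are Aohan minus small tail Han given with the fit's standard error (SE). Of 12480 tested probes, 15.2% passed the threshold (limma, adjusted p under 0.05 by Benjamini-Hochberg), 7.57% as higher and 7.6% as lower in Aohan sheep, and the values of the breeds did not overlap at 34.2%. The skin's own genes were present. None of 4 genes of epithelium and follicle passed, among them the wool follicle keratins KRT25, KRT27 and KRT35, and neither did any of 5 dermal genes, among them DCN of the collagen matrix.

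CYP17A1 was higher in all 3 Aohan sheep than in any small tail Han sheep, at both probes. At A_70_P012531 the log2 signals of small tail Han replicates 1, 2 and 3 were 0.18, 0.49 and 0.50, and those of the Aohan sheep were 1.64, 1.46 and 1.86. The breeds did not overlap here, and the lowest Aohan sheep lay well clear of the highest small tail Han sheep. The means were 0.39 ± 0.19 (SD, n = 3) and 1.66 ± 0.20 (SD, n = 3), a log2 difference of 1.27 (SE 0.17) or 2.40-fold. At A_70_P012532 the small tail Han sheep were at -3.74, -4.42 and -3.48 and the Aohan sheep at -2.39, -2.10 and -2.39. The breeds were again apart, with small tail Han replicate 2 the lowest. The means were -3.88 ± 0.48 (SD, n = 3) and -2.29 ± 0.17 (SD, n = 3), a log2 difference of 1.59 (SE 0.26) or 3.0-fold. In whole skin, more cells that carry a transcript and more transcript per cell cannot be told apart.

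**Figure D1:**
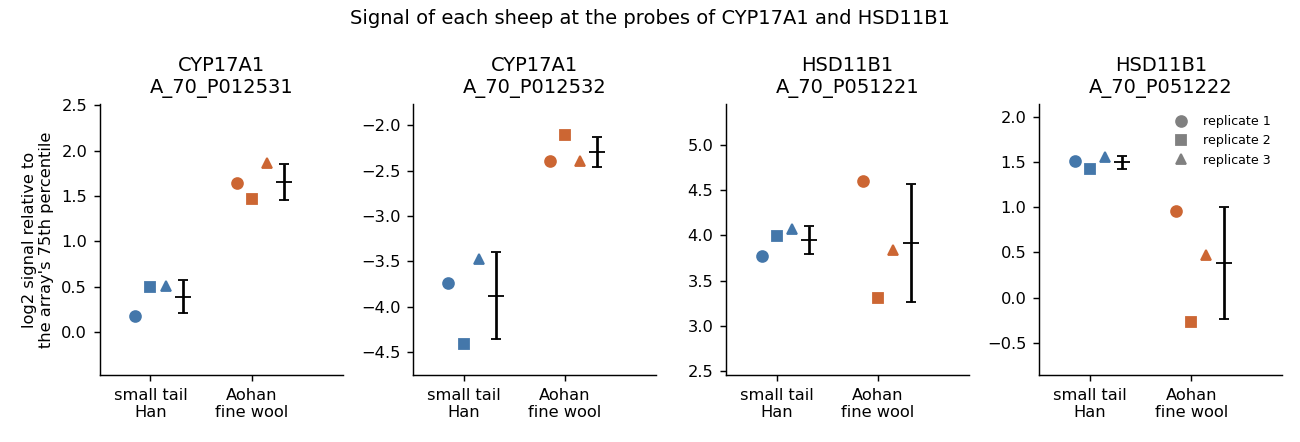
Log2 signal relative to the array's 75th percentile at the 4 probes, sheep by sheep (symbols, replicates 1 to 3 of each breed; bars, mean and SD, n = 3; each vertical axis spans the same log2 range but does not start at 0). Aohan sheep lie above small tail Han sheep at both CYP17A1 probes, overlap them at HSD11B1 A_70_P051221 and lie below them at A_70_P051222.

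The 2 CYP17A1 probes differ in how well they were measured. A_70_P012531 stands in 5 spots on each array, and its median spot signal was 47.7 to 121 times the local background. A_70_P012532 stands in 1 spot, was 3.05 to 10.7 times its background and was still well above background on all 6 arrays. The 5 spots of A_70_P012531 lay close together, with an SD of 0.05 to 0.17 on the log2 scale within an array. As a coefficient of variation this was 3.78% to 4.68% for small tail Han sheep and 5.86% to 12.2% for Aohan sheep. Over the 50 probes with 5 spots, the median was 5.18% to 7.95% and 9.49% to 18.3%. The lowest of the Aohan spots was 0.73 above the highest of the small tail Han spots, so the breeds were separated spot by spot as well as by array means. Spots of 1 array share the same labelled RNA and are not replicates of a breed.

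**Figure D2:**
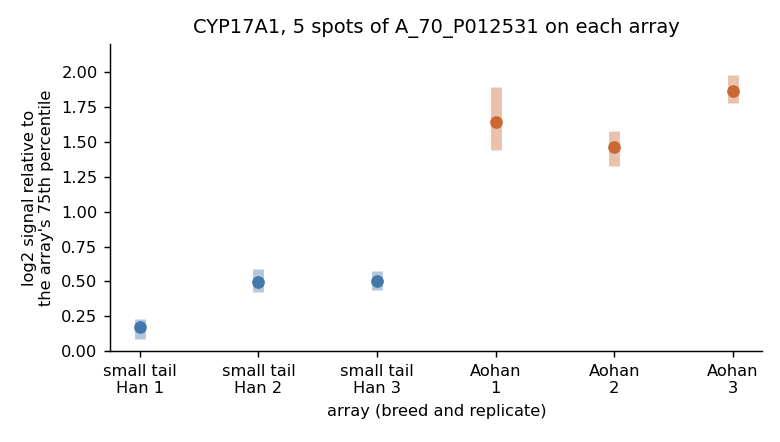
Log2 signal relative to the 75th percentile of CYP17A1 at A_70_P012531 on each of the 6 arrays (points, mean of 5 spots; shaded bars, lowest to highest spot). The spots of all Aohan arrays lie above those of all small tail Han arrays, by 0.73 at the nearest.

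At both probes CYP17A1 had more signal in Aohan skin, and the size of the difference was alike. The gap between the probes, taken within each array as A_70_P012531 minus A_70_P012532, had the values 3.91, 4.91 and 3.98 for the small tail Han animals against 4.03, 3.57 and 4.25 for the Aohan animals. The breeds overlapped in this gap, and its breed difference of -0.32 was exceeded in size by 41.9% of the 446 accessions with 2 tested probes. The sheep of a breed were not ordered in the same way by both probes. Small tail Han replicate 2, the lowest at A_70_P012532, was close to the highest of its breed at A_70_P012531. The reference lists a further protein-coding gene, CYP17, next to CYP17A1, with no probe named for it here. The probe sequences were not used here, so signal from CYP17 at these probes cannot be told apart from that of CYP17A1.

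HSD11B1 gave different pictures at its 2 probes. At A_70_P051221 the small tail Han sheep were at 3.77, 4.0 and 4.08 and the Aohan sheep at 4.61, 3.30 and 3.84. The Aohan sheep lay both above and below the small tail Han sheep. The means were 3.95 ± 0.16 (SD, n = 3) and 3.92 ± 0.65 (SD, n = 3), a log2 difference of -0.03 (SE 0.30). At A_70_P051222 the small tail Han sheep were at 1.51, 1.42 and 1.56 and the Aohan sheep at 0.95, -0.27 and 0.47. All 3 Aohan sheep were below the small tail Han sheep, which lay within 0.14 of each other. The means were 1.49 ± 0.07 (SD, n = 3) and 0.38 ± 0.62 (SD, n = 3), a log2 difference of -1.11 (SE 0.27), or 2.16-fold lower in Aohan sheep. Of the 4 probes of both genes, 3 were past the threshold that 15.2% of all tested probes passed and 3 had breeds that did not overlap, as 34.2% of all tested probes did. Since the genes were chosen with this comparison known, these counts only describe them.

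The gap between the probes of HSD11B1 varied little within each breed and was wider in Aohan sheep. The gap A_70_P051221 minus A_70_P051222 had the values 2.27, 2.58 and 2.52 for the small tail Han animals against 3.65, 3.58 and 3.37 for the Aohan animals. The breeds did not overlap, as was the case for 29.8% of the 446 accessions with 2 tested probes. The means were 2.46 ± 0.17 (SD, n = 3) and 3.53 ± 0.15 (SD, n = 3), a breed difference of 1.08 that 6.28% of the accessions exceeded in size. Because the gap is taken within an array, it does not depend on the scaling of that array. Among Aohan sheep each probe spread widely, over 1.30 and 1.22, yet the gap spread over 0.28. Replicate 1 was the highest and replicate 2 the lowest of the breed at both probes. Among small tail Han sheep the probes spread over 0.30 and 0.14 and the gap over 0.31, so there the gap was no narrower than the probes. For 76 of the 446 accessions 1 probe passed the threshold and the other did not. The place of each probe on the transcript is not known here, so a difference between transcript forms was not tested.

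**Figure D3:**
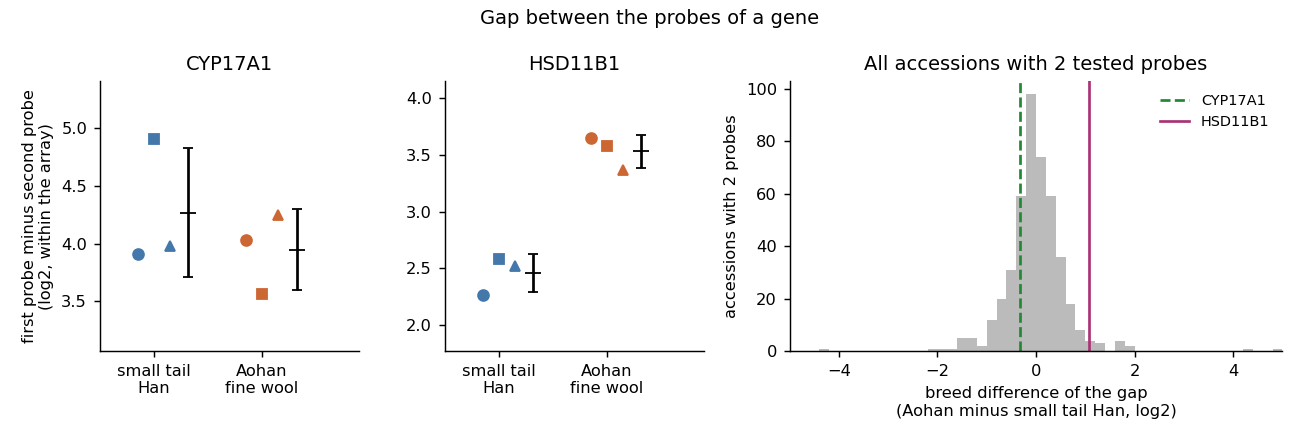
Left and middle, log2 gap between the probes of CYP17A1 and HSD11B1 within each array (circle, square and triangle, replicates 1, 2 and 3; bars, mean and SD, n = 3; axes do not start at 0). Right, breed difference of the gap for 446 accessions with 2 tested probes, in bins of log2 gap, where the line of HSD11B1 at 1.08 lies in the right tail and that of CYP17A1 at -0.32 near the centre.

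The brighter HSD11B1 probe also differed in how its spot was read. On 5 of 6 arrays, all but Aohan replicate 3, the signal of A_70_P051221 came from the scan at low detector gain, which the software scales up for very bright spots. None of the spots of these 4 probes was marked as saturated, and the other probes of both genes were read from the scan at high gain on all arrays. Of 748 tested probes read at low gain on at least 5 arrays, 2.81% passed, with a median absolute log2 difference of 0.20 against 0.32 over all tested probes. The part of this reading in the result at A_70_P051221 and in the gap between the HSD11B1 probes was not tested.

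Markers of fat, where HSD11B1 is also active, overlapped between the breeds as a list. Of 6 tested adipocyte genes, 1 was lower in Aohan sheep, DGAT1, an enzyme of triglyceride synthesis, where 7.6% of all tested probes were lower. DGAT1 had -0.65 (limma adjusted p = 0.0159) at its brighter probe and -0.59 (adjusted p = 0.0831) at the other. The summed linear signal of the list was 11.6 to 13.9 times the 75th percentile in small tail Han sheep and 10.1 to 14.1 in Aohan sheep. PPARG, the fat cell regulator, differed by 0.04 (SE 0.23), and the stearoyl desaturase SCD did not stand well above background on any array. Muscle markers were lower in Aohan sheep in sum, at 14.7 to 24.5 against 41.3 to 57.1. This sum was nearly all CNN1, a smooth muscle protein, which had a log2 difference of -1.31 (SE 0.24, limma adjusted p = 0.00936). At the brightest probe of each of 6 muscle genes, CNN1 was the 1 past the threshold. TNNC2, a troponin of skeletal muscle, had -0.95 (adjusted p = 0.0688) at that probe and -1.37 (adjusted p = 0.0219) at its dimmer one. The part of muscle in the HSD11B1 difference was not tested.

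HSD11B2, the enzyme opposite to HSD11B1, was lower in Aohan sheep at 1 of its 2 probes. At A_70_P051181 the small tail Han sheep were at 1.36, 1.76 and 1.60 and the Aohan sheep at 1.21, 0.44 and 0.81. All Aohan sheep were below, with a log2 difference of -0.75 (SE 0.21, limma adjusted p = 0.0459). At A_70_P051182 the values were 1.36, 1.79 and 1.70 against 1.63, 0.46 and 1.04. Here Aohan replicate 1 reached the small tail Han range, and the difference of -0.57 (SE 0.28) did not pass (adjusted p = 0.206). The call at A_70_P051181 was lost in 7 of 14 other settings. Leaving out replicate 2 or 3 of either breed lost it, with adjusted p = 0.172 and 0.13 for the small tail Han and 0.0925 and 0.123 for the Aohan replicates. Leaving out Aohan replicate 1 brought A_70_P051182 to adjusted p = 0.0331. Aohan replicates 1, 3 and 2 stood in this descending order at both probes of HSD11B1 and at both of HSD11B2. The order was not particular to these enzymes. It also held at PPARG (2.77, 2.34 and 1.87) and at the dermal gene TIMP1 (6.64, 6.37 and 5.88 at A_70_P051411). It did not hold at KRT25, with 8.29, 8.57 and 7.52 at A_70_P051041, though replicate 2 was the lowest there too. At TSPO A_70_P030372 replicate 2 was the highest, at 1.32 against 0.85 and 0.86. The 75th percentile that was subtracted was 2048 for Aohan replicate 2, against 1103 and 1131 for replicates 1 and 3. Before this scaling, Aohan replicates 1, 2 and 3 had intensities of 26860, 20240 and 16210 at A_70_P051221. The part of the scaling in this order was not tested.

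Other enzymes and carriers of the pathway, upstream and downstream of CYP17A1, were at low signal or did not pass at their brightest probe. Of 45 further genes of steroid hormone synthesis and inactivation listed, 6 could be named on the array and 4 were tested. The 4 were STAR, TSPO, CYP11B1 and HSD11B2, of which HSD11B2 passed at its dimmer probe, as given above. At the brightest tested probe of each gene 0 of 4 passed in limma, where 15.2% of all tested probes did. Of the 4, 0 had an unadjusted p under 0.05 and 0 passed the 2-group test named in the study's methods, after the same adjustment. Their median log2 difference was -0.34, against 0.02 over all tested probes. At A_70_P039531 of STAR the small tail Han animals had -3.83, -3.50 and -3.67 against -4.11, -4.18 and -3.98 for the Aohan animals. The Aohan sheep were all below, but the difference of -0.43 (SE 0.21) did not pass (adjusted p = 0.208). TSPO, a protein of the outer mitochondrial membrane linked to cholesterol import, differed by 0.23 (SE 0.17, adjusted p = 0.407), and CYP11B1, which finishes cortisol, by -0.26 (SE 0.34, adjusted p = 0.656). CYP11B1 was well above background on 3 arrays. CYP11A1, which opens the pathway, was well above background on 2 arrays at 1 probe and on 0 at the other, and the same held for CYP19, the aromatase that makes oestrogens. These genes mark adrenal and gonadal cells. Of 6 such markers named on the array, 3 were tested and none passed. Their summed signal was 0.58 to 0.76 in small tail Han and 0.66 to 1.52 in Aohan sheep. FSHR held most of it, at 1 of its 2 probes, A_70_P039292.

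**Figure D4:**
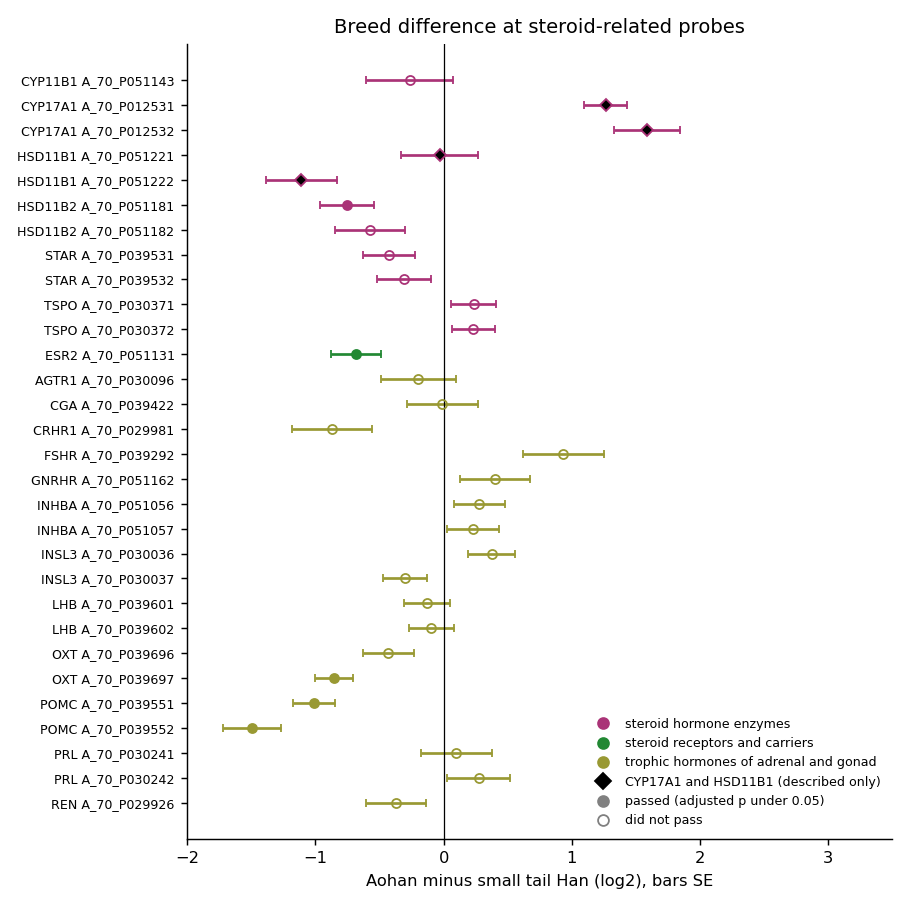
Log2 breed difference (Aohan minus small tail Han; bars, SE) at each tested probe of steroid hormone enzymes, steroid receptors and the hormones that drive adrenal and gonad. CYP17A1 (1.27 and 1.59) lies at the upper end, the HSD11B1 probes lie apart at -0.03 and -1.11, and diamonds mark these 4 probes, which carry no test mark. Among the other genes, filled circles mark the probes past the threshold, at HSD11B2, ESR2, OXT and POMC.

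Among hormones that drive the adrenal and gonad, POMC and OXT were lower in Aohan sheep. Of 12 tested genes for such hormones and their receptors, these 2 were lower and 0 higher, where 7.6% of all tested probes were lower and 7.57% higher, and the median log2 difference was -0.15. POMC, the precursor of the adrenal hormone ACTH and of melanocortins, had -1.72, -1.70 and -1.71 for the small tail Han animals against -3.67, -2.82 and -3.13 for the Aohan animals at A_70_P039552. The breeds were far apart, with a difference of -1.5 (SE 0.23, limma adjusted p = 0.00355), and A_70_P039551 gave -1.01 (SE 0.17, adjusted p = 0.00516). OXT, the oxytocin precursor, fell by 0.86 (SE 0.15, adjusted p = 0.00634) at its brighter probe and had -0.43 (adjusted p = 0.186) at the other. CRHR1, the receptor of corticotropin releasing hormone, had -0.87 (SE 0.31, adjusted p = 0.0974) and FSHR, the receptor of the follicle stimulating hormone, 0.93 (SE 0.32, adjusted p = 0.0845). FSHR passed with normexp (adjusted p = 0.000386), without Aohan replicate 2 (0.00396) and with the replicate number as a block (0.0444). These values are from A_70_P039292, and the other FSHR probe, A_70_P039291, was well above background on 0 of 6 arrays. MC2R, the ACTH receptor, was well above background on 1 of 6 arrays. Among receptors, ESR2, an oestrogen receptor, had -0.68 (SE 0.20, adjusted p = 0.0480) at A_70_P051131, a call that was lost in 10 of 14 other settings. Its other probe, A_70_P051132, was well above background on 0 of 6 arrays. The glucocorticoid receptor NR3C1 stood well above background on 0 of 6 arrays at its named probe. FSHR and ESR2 each had such a probe beside a brighter probe, so this does not show that NR3C1 is absent.

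Of the genes that glucocorticoids are known to switch, 2 induced and 12 repressed ones were tested. Of the 2 induced genes, NFKBIA, an inhibitor of inflammatory signalling, rose by 0.86 (SE 0.16, limma adjusted p = 0.00968), and CDKN1C, a cell cycle inhibitor, fell by 0.73 (SE 0.14, adjusted p = 0.0115). The call of CDKN1C was lost when replicate 2 of the small tail Han breed was left out (adjusted p = 0.0715). Of 12 tested genes that glucocorticoids repress, 3 were higher and 0 lower in Aohan sheep, against 7.57% and 7.6% of all tested probes. They were the neutrophil attractant CXCL8, the cytokine IL6 and the eosinophil factor IL5, with 2.27 (adjusted p = 0.000160), 2.41 (adjusted p = 0.00876) and 0.99 (adjusted p = 0.0162). The other CXCL8 probe, A_70_P039661, had 4.23 (adjusted p = 5.36e-05). The other IL5 probe, A_70_P039441, was well above background on 0 of 6 arrays. IL6 was well above background on 2 small tail Han and 3 Aohan arrays. The median of these 12 was 0.49. NFKBIA and IL6 did not pass with normexp (adjusted p = 0.109 and 0.231), which took IL6 to 0.76. IL5 and IL6 did not pass with the methods' t-test (adjusted p = 0.0937 and 0.0915). For the supply of cholesterol, neither of 2 tested genes passed, SQLE of cholesterol synthesis at 0.10 (adjusted p = 0.853) and LCAT of cholesterol esterification at -0.37 (adjusted p = 0.332). Over all 6 lists, leaving out CYP17A1 and HSD11B1, 4 of 33 genes were higher and 4 were lower, against 7.57% and 7.6% of all tested probes.

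Genes whose profile over the 6 arrays lay nearest to each enzyme were found among 422 named symbols, by the root mean square distance between mean-centred log2 signals. For CYP17A1 (mean of its probes) these were LOC443441 at 0.24, IGF2, an insulin-like growth factor, at 0.24, FGF2, a fibroblast growth factor, at 0.26, CD3E, a T cell receptor component, at 0.26 and SLC5A1, a glucose transporter, at 0.27. The profile of CYP17A1 itself has a root mean square of 0.73. For HSD11B1 the nearest were AHSG, a plasma protein, at 0.10, HSD11B2 at 0.11, MSTN, a brake on muscle growth, at 0.15, HAND1, a transcription factor, at 0.16 and MCP-3, a chemokine, at 0.16, with 0.47 for HSD11B1 itself. This too is the mean of its probes, which gave different pictures, so its neighbours need not be those of either probe. Taken alone, A_70_P051221 was nearest to PYGL, a glycogen phosphorylase, at 0.08, and A_70_P051222 to LGALS15, a galectin, at 0.15. None of the 5 genes nearest to either probe alone was among those nearest to the mean. These per-probe neighbours were looked up after the values of the probes were seen.

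The breed difference of CYP17A1 was positive at both probes under each set of values, at 1.18 to 1.36 for A_70_P012531 and 1.00 to 1.59 for A_70_P012532. Its lowest value at the dim probe came with normexp, a background correction that adds an offset to each signal. HSD11B1 differed by -0.03 to 0.21 at A_70_P051221 and by -1.36 to -0.95 at A_70_P051222. The Aohan sheep stayed above at both CYP17A1 probes and below at A_70_P051222 in all 4 sets of values, and overlapped at A_70_P051221 in all 4.

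**Figure D5:**
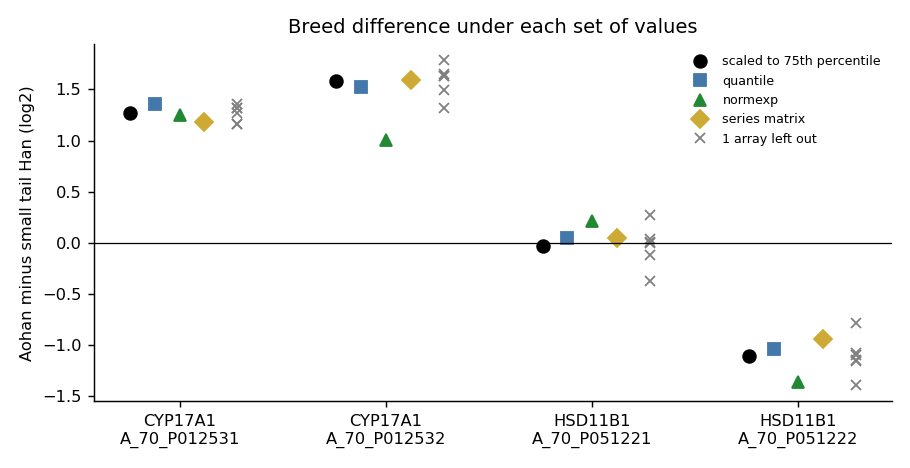
Log2 breed difference (Aohan minus small tail Han) at each probe with signals scaled to the 75th percentile, quantile normalization, normexp background correction and the series matrix values, and with each array left out in turn (crosses). Both CYP17A1 probes stay above 0, A_70_P051222 stays below 0 and A_70_P051221 lies on both sides of 0.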

How the data were processed

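Per the file headers, the authors extracted the scans with Agilent Feature Extraction 10.5.1.1, and the deposited scanner files hold background-subtracted Cy3 intensities that were not normalized across arrays. The headers record a multiplicative surface correction for 4 arrays but none for replicates 2 and 3 of the small tail Han breed. The deposited series matrix gives log2 values after normalization across arrays by the authors, with a median of 8.31 in each column and a method not given in the sources used here. Control spots were dropped, as were spots marked as outliers (120 probes). Log2 processed intensities were averaged over the spots of a probe, and each array's 75th percentile over the 15008 probes was subtracted. Tested were 12480 probes with 2 values per breed that stood well above background on 3 or more arrays, with limma 3.58.1 in R 4.3.3, with an intensity trend, two-sided. The fit was run on simulated data with independent noise at each probe, which hold no effect of scan or sire. The number of arrays limits the precision. The p-values set a breed difference against the spread among these sheep, which does not cover differences between families or scans. RefSeq accessions named 734 of 758 accession-bearing probes through the table of assembly ARS-UI_Ramb_v3.0. The files name no build, so coordinates are not given. Both genes and the lists were chosen with earlier results of these data known. A list gene is represented by its brightest tested probe. Named are CYP17A1 and HSD11B1, list genes that passed or had the smallest p, and the 5 nearest profiles, while the marker genes named were chosen after their values were seen. Alternatives were quantile normalization, normexp (offset 50, on median signals since the files hold no means), the series matrix, a fit of unfiltered probes, a filter requiring all 6 arrays, each array left out, no trend, the replicate number as a block and the methods' t-test. Figures were drawn with matplotlib 3.10.9.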

Additional observations from a re-analysis of the deposited data

How the results depend on the processing

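The differences at the CYP17A1 and HSD11B1 probes and in their gaps moved by less than 1 SD between sheep with quantile normalization, the series matrix values and each array left out. With normexp, A_70_P012532 of CYP17A1 had 1.00, the breed difference of its probe gap was 0.25 in place of -0.32, and that of HSD11B1 was 1.57 in place of 1.08. With 1 array left out the differences were 1.16 to 1.36 at A_70_P012531, 1.32 to 1.79 at A_70_P012532, -0.38 to 0.28 at A_70_P051221 and -1.39 to -0.78 at A_70_P051222. The gap differences were -0.50 to 0.0012 for CYP17A1, the latter without small tail Han replicate 2, and 0.98 to 1.16 for HSD11B1. A_70_P051222 lost the threshold when replicate 2 or 3 of the small tail Han breed or replicate 3 of the Aohan breed was left out and when the fit had no intensity trend. With the methods' t-test A_70_P012531 was the 1 of the 4 probes past it. Since the genes were chosen with this comparison known, the calls at the 4 probes only describe them. Of all tested probes 767 and 942 passed with replicate 2 and 3 of the small tail Han breed left out, 1082 with replicate 3 of the Aohan breed left out and 712 with the t-test, against 1893. The share of these calls that were higher in Aohan sheep ranged from 40.4% to 54.7% over the settings. The count of steroid hormone enzyme genes was 0 to 1 with 1 array left out, the 1 being HSD11B2 without Aohan replicate 1, and 0 in the other settings. The count over the 6 lists, 8, was 6 to 9 with 1 array left out and 3 with the t-test. Among the list genes, 569 values over the settings kept their direction and side of the threshold, 24 lost and 9 gained the threshold, and 17 of 8 genes changed sign, none of them past the threshold in either setting. With normexp these were CGA at 0.0565, INHBA A_70_P051056 at -0.0565, INSL3 A_70_P030037 at 0.0013 and LHB A_70_P039601 at 0.0452, and IL2 had -0.0275 with quantile normalization and -0.038 in the series matrix. With 1 array left out CGA had -0.21 to 0.27, ICAM1 -0.48 to 0.14, IL2 -0.11 to 0.17, LHB A_70_P039602 -0.18 to 0.0188, PRL A_70_P030241 -0.0365 to 0.25 and SQLE A_70_P051331 -0.0718 to 0.38. Deviations of same-numbered sheep correlated at -0.224, -0.369 and 0.278, and those of differently numbered sheep at -0.303 to 0.47. With 3 sheep per breed, these values cannot show whether the replicate numbers pair the sheep. The replicate number as a block left the differences of both genes as they were, gave 8 list genes, took HSD11B2 A_70_P051181 to an adjusted p of 0.0959 and took the calls over all probes to 1234. The cause of these changes was not tested.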
